A study of Homo sapiens with 8 samples.

Results

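The 10 genes described here store, take up, export and sense iron. They are FTH1, FTL and NCOA4 on the storage side, TFRC and SLC11A2 for uptake, SLC40A1 and CP for export, ACO1 and IREB2 for sensing, and BEST1. They were picked by gene symbol from the 60558 genes of the series by a rule that used no measured value, although earlier results of these data were known when the genes were picked, and BEST1 was added because its exons lie over those of FTH1. RNA-seq covered human intestinal epithelial cells grown in 2D (hIECs), made by differentiation of the human embryonic stem cell line H9. There were 4 groups of 2 libraries. Normal hIECs were the untreated control, and normal hIECs with PM10 received these airborne particles at 100 μg/ml for the last 7 of 10 days. Inflamed hIECs were cultured for 10 days with the cytokines IFNγ and TNFα, each at 50 ng/ml, and inflamed hIECs with PM10 were given both the cytokines and the particles. All groups came from the same H9 line. The labels number the 2 libraries of a group but do not say that they came from separate cultures, so the p-values measure the spread between these libraries, which may be technical.

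Cells keep iron in ferritin, a hollow shell of heavy (FTH1) and light (FTL) chains, and NCOA4 carries ferritin to the lysosome to set the iron free. Transferrin-bound iron enters through the transferrin receptor (TFRC) and crosses the endosomal membrane through DMT1 (SLC11A2), which enterocytes also use to absorb iron from the gut lumen. Ferroportin (SLC40A1) is the only known iron exporter and is where enterocytes pass iron to the blood. When iron is scarce, the iron regulatory proteins IRP1 (ACO1) and IRP2 (IREB2) bind a stem-loop called the iron-responsive element, which blocks translation when it stands in a 5′UTR and protects the mRNA when it stands in a 3′UTR. The FPKM values below are mRNA levels and do not show translation.

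The stem-loops place the genes on the 2 sides of this switch, so they are shown before the values. The GRCh38 transcripts of GENCODE release 44 were searched on the transcribed strand for a loop of CAGTGN between 2 stems of 5 bases with an unpaired C before the upper stem, with G-T pairs allowed, and each is printed 5′ to 3′ as a 30-base window with the 6-base loop in capitals. FTH1, FTL and SLC40A1 held a match with 5 of 5 stem pairs in the 5′UTR, and TFRC held 4 of them in the 3′UTR.
FTH1 5′UTR, chr11:61967573-61967602, minus strand: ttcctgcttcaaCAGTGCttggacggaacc
FTL 5′UTR, chr19:48965335-48965364, plus strand: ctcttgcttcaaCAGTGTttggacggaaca
SLC40A1 5′UTR, chr2:189580660-189580689, minus strand: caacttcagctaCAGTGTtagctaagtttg
TFRC 3′UTR, chr3:196050978-196051007, minus strand: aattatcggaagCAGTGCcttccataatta
TFRC 3′UTR, chr3:196050574-196050603, minus strand: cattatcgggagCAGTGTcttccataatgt
TFRC 3′UTR, chr3:196050509-196050538, minus strand: ctgtatcggagaCAGTGAtctccatatgtt
TFRC 3′UTR, chr3:196050462-196050491, minus strand: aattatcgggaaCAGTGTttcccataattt
SLC11A2 3′UTR, chr12:50988268-50988297, minus strand: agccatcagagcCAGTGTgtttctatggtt
The matches stood in 7 of the 8 annotated transcripts of FTH1, the 1 of FTL, 10 of the 11 of TFRC and only 1 of the 5 of SLC40A1. The SLC11A2 match had 4 of 5 pairs and stood in 4 of its 17 transcripts. ACO1 and IREB2 also had a match with 4 pairs in the 3′UTR, in 1 of 3 and 1 of 4 transcripts. FPKM per gene does not separate the transcripts with and without a match. Among all canonical transcripts, a match with 5 pairs was present in 0.0988% of 19224 5′UTRs and 0.629% of 19229 3′UTRs, and a match with at least 4 pairs in 0.536% and 4.31%. A match is a description of letters, and no protein binding was measured here. CP, NCOA4 and BEST1 had no such match in these transcripts.

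Values are FPKM, fragments scaled to transcript length and to the mapped fragments of the library, as the authors deposited them. The files hold no read counts. Each library had a lowest value above 0, between 0.164 and 0.228 FPKM, that 27 to 43 genes shared and that was taken to mark an average coverage of 1 along a transcript. On that reading the aligned sequence came to 6.11 and 4.67 gigabases for normal hIECs, 4.61 and 4.98 with PM10, 4.38 and 4.74 for inflamed hIECs, and 4.74 and 4.72 with both treatments. Differences were taken as log2(FPKM + 1), a scale on which the change of a weakly expressed gene is understated, and tested with limma over 14206 genes with p-values adjusted by the Benjamini-Hochberg method. A gene was called when its adjusted p was under 0.05. For a single gene, the smallest two-sided p that permuting 2 against 2 libraries allows in an exact test is 0.333. Comparisons shared libraries and are not independent of each other. In bulk RNA, fewer cells of a type and less RNA per cell cannot be told apart.

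Markers of the cell types a culture could hold were read beside the iron genes. Of 15 epithelial markers, 6 (CLDN3, CDX2, VIL1, MUC2, LYZ and CHGA) were listed at 0 in all 8 libraries, and of 12 mature enterocyte markers only ANPEP was above 0. ANPEP stood between 0.375 and 0.672 FPKM in the 6 libraries with 1 treatment or none, and at 1.47 and 1.18 with both. A value of 0 means a coverage under the lowest value above 0, so markers of the absorptive cells in which DMT1 and ferroportin move dietary iron were, but for ANPEP, not detected at this depth. The cells are called hIECs after the study. Of the other epithelial markers, EPCAM was at most 0.622 FPKM and CLDN4 at most 0.546. CDH1 was above 0 only in replicate 1 of inflamed hIECs with PM10 (0.221 FPKM), and ELF3 only in normal replicate 1 (0.188 FPKM). KRT8, the most abundant epithelial marker, stood at 373 and 383 FPKM in normal hIECs, 361 and 382 with PM10, 210 and 220 in inflamed hIECs, and 195 and 185 in inflamed hIECs with PM10. The summed FPKM of the epithelial list was 644 and 654, 601 and 638, 358 and 352, and 313 and 295 in the same order, and KRT8 and KRT18 carried most of it. LGR5, the intestinal stem cell marker of the same list, was called in the other direction for cytokines without PM10 (0.97 on the log2 scale, adjusted p = 0.00013, limma), from a mean of 2.32 to 5.47 FPKM, and its mean was 8.10 with both treatments. None of 14 mesenchymal markers was at 0, TAGLN was the most abundant of them, and their sum was 5538 and 5489 in normal hIECs, 4927 and 4941 with PM10, 6350 and 6418 in inflamed hIECs, and 5704 and 5697 in inflamed hIECs with PM10. Within that list, 7 of 14 were called higher and 5 lower for cytokines without PM10 (85.7% against 56.2% of all genes), TAGLN (0.65) and ACTA2 (0.56) among the former and COL3A1 (-0.53), PDGFRA (-0.69) and TWIST1 (-0.65) among the latter. The sum of 11 neuronal markers, led by STMN2, was between 368 and 423 without cytokines and between 213 and 217 with them. Of the 9 tested, 1 was called higher and 6 lower for cytokines without PM10, which is 77.8% against 56.2% of all genes. DCX is among those lower, with a mean of 2.46 FPKM in normal and 0.308 in inflamed hIECs. It passed the filter only through the groups without cytokines, so its fall was fixed in advance and supports nothing. SYT1 was the marker called higher (0.72, adjusted p = 0.00012, limma), from a mean of 2.67 to 5.07 FPKM, and MAP2 and NEFL were not called. Marker levels differed with PM10 too. In inflamed hIECs STMN2 was called higher and NEFM and SNAP25 lower with PM10, which is 33.3% of the 9 neuronal markers tested against 15.2% of all genes. None of the 9 was called for PM10 in normal hIECs. In inflamed hIECs 1 of the 14 mesenchymal markers was called higher and 8 lower with PM10, which is 64.3% against 15.2% of all genes, with a median difference of -0.30, and in normal hIECs 3 were called higher and 3 lower, which is 42.9% against 9.23%. The part of these marker differences in the results below, those of FTL, NCOA4 and BEST1 with PM10 included, was not tested. Macrophages, liver cells and erythroid cells handle much of the iron of the body, and most of their markers were at 0. Of 12 leukocyte and macrophage markers 8 were at 0 in every library, CD14, CD163 and CSF1R among them, and the sum of the list was at most 4.99 FPKM. Of the rest, FCER1G was at a mean of 1.09 FPKM with no treatment, 0.914 after PM10 alone, 3.63 after cytokines alone and 3.33 after both. AIF1 stood at 2.79, 0.766, 0.232 and 0 in the same order, and CD68 at 0.506, 0.154, 0.366 and 1.47. PTPRC, which did not reach 1 FPKM and was not tested, stood at 0.434, 0.282, 0 and 0. AIF1 and CD68 passed the filter only through the group where they were high, so they are given as values alone. Their part in the iron results was not tested. Of 14 hepatocyte markers 11 were at 0, including ALB, TTR and TF, and the list summed to at most 7.43 FPKM, led by ASGR1 with means of 5.51, 6.25, 3.10 and 2.48 FPKM. Among erythroid markers, the globin genes HBA1, HBA2 and HBB and the regulators GATA1 and KLF1 were listed at 0 in every library.

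FTH1 mRNA was about 2-fold higher in both groups treated with cytokines, and no difference with PM10 passed. FTH1 stood at 950 and 1078 FPKM in normal hIECs and at 1115 and 1085 with PM10. In inflamed hIECs it stood at 2269 and 2351, and in inflamed hIECs with PM10 at 2200 and 2280. All 4 libraries with cytokines were above all 4 without, and the 2 inflamed groups overlapped. FTH1 is on chromosome 11 (61959718-61967634, minus strand) and ranked 17th by FPKM in each of the libraries with cytokines and between 40th and 63rd in those without. The mean was 2.28 times higher in inflamed than in normal hIECs, a difference of 1.19 ± 0.066 (SE) on the log2 scale with an adjusted p of 6.79e-06 in limma. With PM10 in both groups the ratio was 2.04 and the difference 1.02 ± 0.066, and the call held under all 21 alternatives in both comparisons. PM10 in inflamed hIECs gave a difference of -0.04 with a 95% interval from -0.20 to 0.11, and PM10 in normal hIECs gave 0.12 with an interval from -0.03 to 0.27, neither of which passed. The interaction was -0.16 with an adjusted p of 0.334, and without normal replicate 2 it was -0.26 with an adjusted p of 0.0352. FTH1 with PM10 in normal hIECs passed when normal replicate 2 was left out (0.21, adjusted p = 0.0385) and with quantile normalization (0.31, adjusted p = 0.034).

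FTL mRNA rose with each treatment alone but was lower with both treatments than with cytokines alone. FTL stood at 937 and 941 FPKM in normal hIECs, 1197 and 1246 with PM10, 1542 and 1559 in inflamed hIECs, and 1335 and 1340 in inflamed hIECs with PM10. No groups overlapped, and the order from lowest to highest was normal, normal with PM10, inflamed with PM10, inflamed. The gene is on chromosome 19 (48965309-48966879, plus strand). PM10 raised FTL by 30.1% in normal hIECs (0.38 ± 0.043, adjusted p = 0.00442, limma, and 0.116 in a fit of those 2 groups alone) and lowered it by 13.7% in inflamed hIECs (-0.21 ± 0.043, adjusted p = 0.0182). The interaction of PM10 and cytokines, the difference between these 2 effects of PM10, was -0.59 ± 0.06 with an adjusted p of 0.00287 and held under all 20 alternatives. Cytokines without PM10 raised FTL 1.65-fold (0.72 ± 0.043), a call kept in all 21 alternatives. With PM10 in both groups the ratio was 1.09 (0.13 ± 0.043, adjusted p = 0.0289). That last call was lost when any library of the 3 treated groups was left out (adjusted p between 0.055 and 0.175) and without the variance trend (adjusted p = 0.0725), and the fall with PM10 in inflamed hIECs was lost without any of the 4 inflamed libraries (adjusted p between 0.0981 and 0.116).

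**Figure D1:**
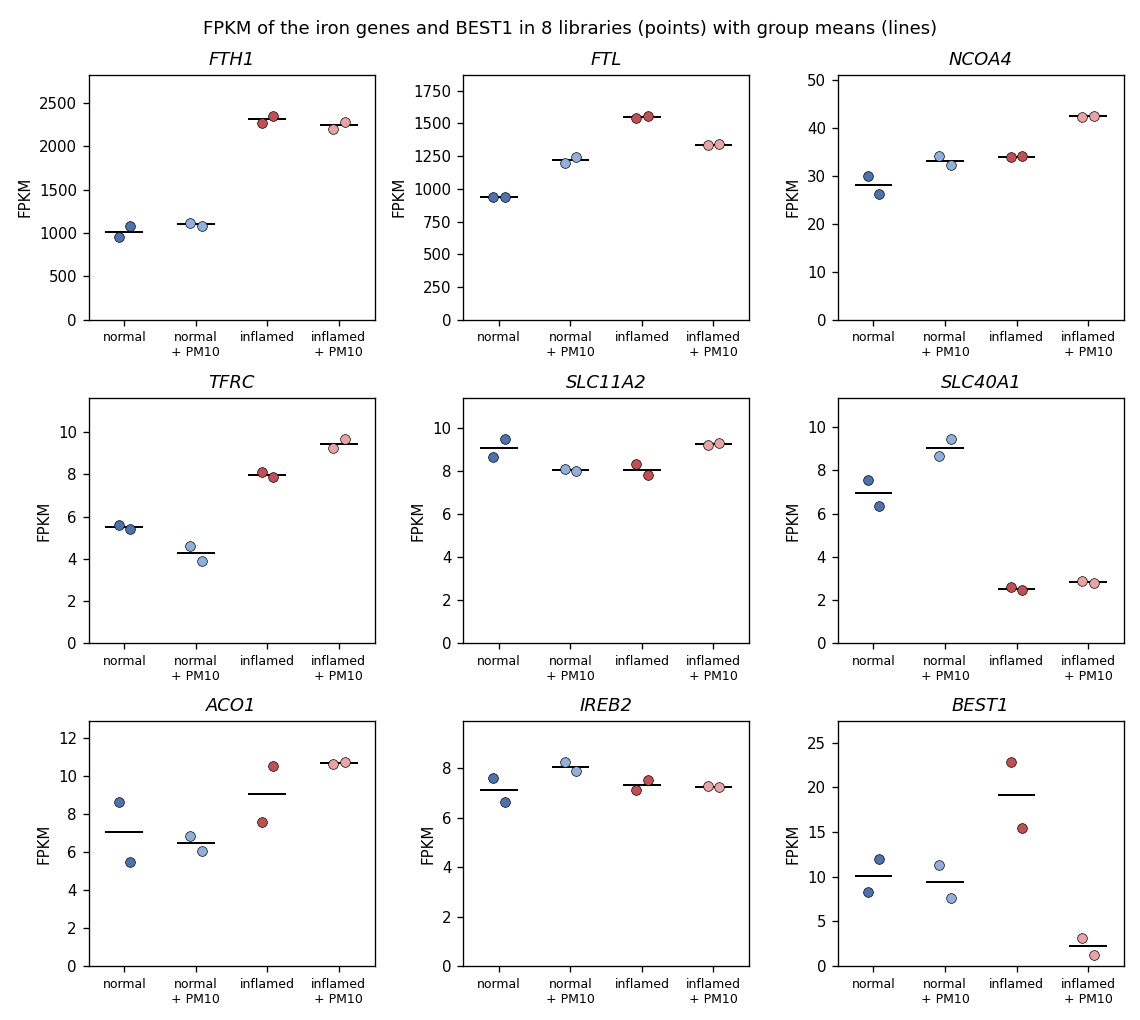
FPKM (vertical axes, each from 0) of the 8 iron genes with values above 0 and of BEST1 in the 4 groups, with a point for each of the 2 libraries and a line at the group mean. FTH1 lies between 950 and 1115 FPKM without cytokines and between 2200 and 2351 with them, SLC40A1 falls from at least 6.34 to at most 2.87, and BEST1 spreads widely within groups.

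The 2 ferritin chains were then set against each other within each library. The ratio of FTH1 to FTL FPKM was 1.01 and 1.15 in normal hIECs, 0.931 and 0.871 with PM10, 1.47 and 1.51 in inflamed hIECs, and 1.65 and 1.70 in inflamed hIECs with PM10. All 4 libraries with cytokines had more FTH1 relative to FTL than any without. The log2 difference between FTH1 and FTL was 0.68 higher with cytokines than without (exact two-sided permutation test over 8 libraries, p = 0.0286, the smallest the 70 arrangements allow, and 0.167 adjusted over the 6 differences between genes that were tested this way). With PM10 the ratio was lower in normal hIECs and higher in inflamed hIECs, in both libraries of each and without overlap, so an average over the 2 settings does not describe it. Ferritin is counted from multi-copy sequence, since processed pseudogenes of FTH1 and FTL share much of the coding sequence. Of 25 FTH1 pseudogene rows 12 were above 0 in some library, and their sum was between 0.794% and 1.11% of FTH1. It was 10.6 and 10.2 FPKM in normal hIECs, 10.9 and 11.7 with PM10, 18.8 and 18.7 in inflamed hIECs, and 19.9 in both inflamed libraries with PM10. FTH1P2, FTH1P8 and FTH1P10 had the highest means, and in inflamed against normal hIECs they differed by 0.86, 0.46 and 0.43 on the log2 scale, all called. How reads were divided between FTH1 and these copies is not given in the sources used here, so the small pseudogene values are uncertain. Of 16 FTL pseudogene rows 3 were above 0, with a sum of at most 0.975 FPKM.

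**Figure D2:**
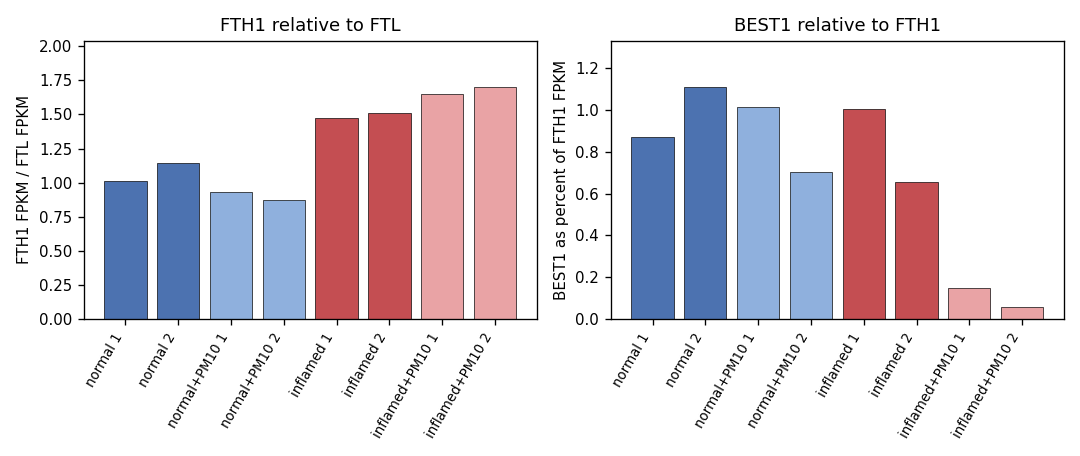
Left, the ratio of FTH1 to FTL FPKM in each of the 8 libraries, and right, BEST1 as a percentage of FTH1 FPKM in the same libraries, with bars from 0. The ratio runs from 0.871 to 1.15 without cytokines and from 1.47 to 1.70 with them, while BEST1 is between 0.656% and 1.11% of FTH1 in 6 libraries and at 0.146% and 0.0554% in inflamed hIECs with PM10.

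NCOA4, the receptor that takes ferritin to the lysosome, was highest where both treatments were combined. It stood at 29.97 and 26.1 FPKM in normal hIECs, 34.1 and 32.3 with PM10, 33.9 and 34.2 in inflamed hIECs, and 42.3 and 42.6 in inflamed hIECs with PM10. The inflamed group with PM10 was above all others, normal hIECs were below all others, and the middle groups overlapped. The gene lies on chromosome 10 (46005088-46030623, minus strand). Cytokines raised NCOA4 without PM10 (0.27 ± 0.069, adjusted p = 0.0115, limma) and with it (0.35 ± 0.069, adjusted p = 0.00317). PM10 raised it in inflamed hIECs (0.31 ± 0.069, adjusted p = 0.0254), while in normal hIECs the difference was 0.24 with an adjusted p of 0.0708. The interaction was 0.07 with an interval from -0.15 to 0.30, so the effect of PM10 was not shown to differ between normal and inflamed hIECs. The call for PM10 in inflamed hIECs was lost without any of the 4 inflamed libraries (adjusted p between 0.109 and 0.117), and that for cytokines without PM10 was lost without inflamed replicate 2 (0.27, adjusted p = 0.0555). Without normal replicate 1, PM10 in normal hIECs passed instead (0.33, adjusted p = 0.0125).

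TFRC, the receptor for transferrin-bound iron, was higher with cytokines, and more so in the presence of PM10. It stood at 5.61 and 5.42 FPKM in normal hIECs and at 4.59 and 3.90 with PM10. In inflamed hIECs it stood at 8.11 and 7.86, and with PM10 at 9.24 and 9.69. No groups overlapped. TFRC lies on chromosome 3 (196012511-196082153, minus strand). Cytokines raised it 1.45-fold without PM10 (0.46 ± 0.077, adjusted p = 0.00168, limma) and 2.23-fold with PM10 (0.998 ± 0.077, adjusted p = 2.51e-05), and both calls held under all 20 alternatives. PM10 lowered TFRC by 23.0% in normal hIECs (-0.32 ± 0.077, adjusted p = 0.0475), while in inflamed hIECs it was 18.5% higher, which did not pass (0.22, adjusted p = 0.0971). The interaction was called at 0.53 ± 0.109 (adjusted p = 0.0333). TFRC with PM10 in normal hIECs was close to the threshold, and its call was lost under 14 of 20 alternatives, among them leaving out any single library (adjusted p between 0.0717 and 0.194). The interaction was lost under 8 of 19, including leaving out any library but replicate 1 of normal hIECs with PM10 (adjusted p between 0.0531 and 0.116).

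SLC11A2, the DMT1 transporter, kept a narrow range of 7.82 to 9.51 FPKM. It stood at 8.68 and 9.51 in normal hIECs, 8.12 and 8.02 with PM10, 8.33 and 7.82 in inflamed hIECs, and 9.22 and 9.32 in inflamed hIECs with PM10. Normal hIECs overlapped with the inflamed group with PM10, and the other 2 groups overlapped with each other. It lies on chromosome 12 (50979401-51028566, minus strand). The difference of cytokines was -0.15 without PM10 (adjusted p = 0.0785, limma) and 0.18 ± 0.064 with PM10 (adjusted p = 0.0412). The latter call was lost under 8 of 20 alternatives, among them leaving out any library of the 3 treated groups (adjusted p between 0.0556 and 0.14). The interaction was 0.33 with an adjusted p of 0.0786, and without normal replicate 1 it was 0.39 with an adjusted p of 0.0421, while the difference of cytokines without PM10 was then -0.21 (adjusted p = 0.0306).

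SLC40A1, which encodes ferroportin, fell with cytokines. It stood at 7.57 and 6.34 FPKM in normal hIECs and at 8.66 and 9.47 with PM10. It was at 2.61 and 2.44 in inflamed hIECs and at 2.87 and 2.79 with PM10. The highest library with cytokines was far below the lowest without them. The gene lies on chromosome 2 (189560590-189583758, minus strand). The mean in inflamed hIECs was 0.363 times that in normal hIECs (-1.17 ± 0.09, adjusted p = 3.45e-05, limma), and with PM10 in both groups the ratio was 0.313 (-1.39 ± 0.09, adjusted p = 9.9e-06). Both calls held under all 20 alternatives. PM10 in normal hIECs gave 0.34 with an adjusted p of 0.0565, and leaving out normal replicate 1 brought it to 0.45 with an adjusted p of 0.0202. With a filter of 5 FPKM and with protein-coding genes only, PM10 in normal hIECs passed at the same 0.34 (adjusted p = 0.044 and 0.0483, limma). PM10 in inflamed hIECs gave 0.12 with an interval from -0.09 to 0.33. CP (chromosome 3, 149162410-149221829, minus strand) encodes ceruloplasmin, a ferroxidase made mainly in the liver that works with ferroportin, and was listed at 0 in all 8 libraries. Its exons share 1420 bases with HPS3 on the other strand, which stood between 3.796 and 5.61 FPKM, and libraries without strand information do not tell reads of the 2 genes apart there.

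ACO1 and IREB2 encode the 2 iron regulatory proteins, whose activity depends on iron and on protein stability rather than on mRNA alone. ACO1 (chromosome 9, 32384603-32454769, plus strand) stood at 8.62 and 5.46 FPKM in normal hIECs, 6.83 and 6.08 with PM10, 7.57 and 10.5 in inflamed hIECs, and 10.6 and 10.7 in inflamed hIECs with PM10. Its 2 normal libraries lay on either side of those with PM10, and only the inflamed group with PM10 was apart from the rest. Cytokines with PM10 raised it 1.66-fold (0.65 ± 0.198, adjusted p = 0.0215, limma), a call lost without any of the 4 libraries compared (adjusted p between 0.0517 and 0.101). Cytokines without PM10 gave 0.33 with an interval from -0.13 to 0.80, and without normal replicate 1 they gave 0.62 with an adjusted p of 0.0263. IREB2 (chromosome 15, 78437431-78501453, plus strand) stood at 7.59 and 6.65 FPKM in normal hIECs, 8.25 and 7.89 with PM10, 7.11 and 7.51 in inflamed hIECs, and 7.28 and 7.23 in inflamed hIECs with PM10. It passed in none of the 5 comparisons, and its differences between groups ranged from -0.14 (95% interval from -0.31 to 0.03) for cytokines with PM10 to 0.16 (95% interval from -0.01 to 0.33) for PM10 in normal hIECs.

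BEST1 encodes bestrophin 1, a chloride channel of the retinal pigment epithelium, and is described because it cannot be measured apart from FTH1 in part of its length. BEST1 (chromosome 11, 61950063-61965515, plus strand) and FTH1 are on opposite strands, and 1267 exon bases belong to both, which is 63.2% of the exon bases of FTH1 and 14.6% of those of BEST1. Of the 1203 bases of the canonical FTH1 transcript 880 lie over an exon of some BEST1 transcript, and of the 2210 bases of the canonical BEST1 transcript 177 lie over canonical FTH1 exons. BEST1 stood at 8.30 and 11.98 FPKM in normal hIECs, 11.3 and 7.62 with PM10, 22.8 and 15.4 in inflamed hIECs, and 3.20 and 1.26 in inflamed hIECs with PM10. Normal hIECs with and without PM10 overlapped, the inflamed libraries were the highest, and those with both treatments the lowest. Relative to FTH1 it was low throughout, between 0.656% and 1.11% of it in 6 of them and 0.146% and 0.0554% in inflamed hIECs with PM10. PM10 lowered BEST1 in inflamed hIECs to 0.117 of its level (-2.68 ± 0.332, adjusted p = 0.00304, limma), and cytokines with PM10 to 0.236 (-1.74 ± 0.332, adjusted p = 0.0026), while FTH1 in the same libraries differed by -0.04 and 1.02. Both calls held under all 20 alternatives, but their size depended on which library of inflamed hIECs with PM10 was kept. Without replicate 1 of that group, the FPKM ratio was 0.0660 for PM10 in inflamed hIECs and 0.133 for the cytokines with PM10, and without replicate 2 it was 0.167 and 0.338. The interaction was called at -2.59 ± 0.47 (adjusted p = 0.0247) and was lost without any library other than normal replicate 2 and replicate 1 of inflamed hIECs with PM10 (adjusted p between 0.0526 and 0.0882). Cytokines without PM10 gave 0.85 with an adjusted p of 0.0622, and the call passed without either replicate of inflamed hIECs with PM10 (adjusted p = 0.0311 and 0.031). BEST1 with cytokines without PM10 also passed in a fit of only the groups compared (0.85, adjusted p = 0.0309, limma). The strand of the reads behind these values is unknown, and how many of them come from FTH1 mRNA was not tested. The log2 difference between BEST1 and FTH1 was 1.55 lower with cytokines than without, which did not pass (exact permutation, p = 0.0857, 0.167 adjusted). This average over both settings does not describe either, since the difference with cytokines was 0.85 for BEST1 and 1.19 for FTH1 without PM10, and -1.74 and 1.02 with it.

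**Figure D3:**
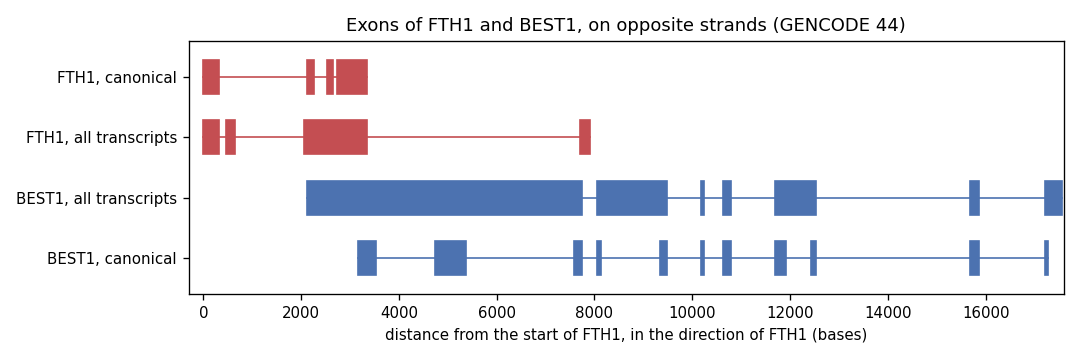
Exons of FTH1 (red) and BEST1 (blue), which lie on opposite strands, drawn to scale against distance in bases from the start of FTH1 in its own direction, for the canonical transcript and for all transcripts of GENCODE release 44. The exons of all BEST1 transcripts cover 880 of the 1203 canonical FTH1 exon bases.

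Across the 10 genes, 9 passed the filter of 1 FPKM in 2 libraries, and CP did not. PM10 in normal hIECs called 2 of the 9 (FTL higher, TFRC lower), where 9.23% of all 14206 genes were called, 5.51% higher and 3.72% lower. Cytokines without PM10 called 5 (FTH1, FTL, NCOA4 and TFRC higher, SLC40A1 lower), against 56.2% of all genes (25.9% higher and 30.3% lower), so a count of this size is near the background. Cytokines with PM10 called 8, 6 of them higher and 2 lower, against 65.4% (25.8% higher and 39.6% lower). PM10 in inflamed hIECs called 3 (NCOA4 higher, FTL and BEST1 lower), against 15.2% (6.22% higher and 9.02% lower). The interaction called 3 (TFRC higher, FTL and BEST1 lower), against 6.6% (2.11% higher and 4.48% lower). A difference of 1 or more on the log2 scale was passed by 2 members for cytokines without PM10 (FTH1 and SLC40A1), against 9.39% of all genes, and by 3 with PM10 (FTH1, SLC40A1 and BEST1), against 13% of all genes. TFRC with PM10 was just under this limit. BEST1 alone passed it for PM10 in inflamed hIECs, against 0.845% of genes, and for the interaction, against 1.41%. No member passed it for PM10 in normal hIECs, where 0.577% of genes did. The median difference of the 9 members was 0.12, 0.33, 0.18 and 0.12 for PM10 in normal hIECs, cytokines without PM10, cytokines with PM10 and PM10 in inflamed hIECs, and the median over all genes tested was 0.059, -0.028, -0.11 and -0.0061.

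**Figure D4:**
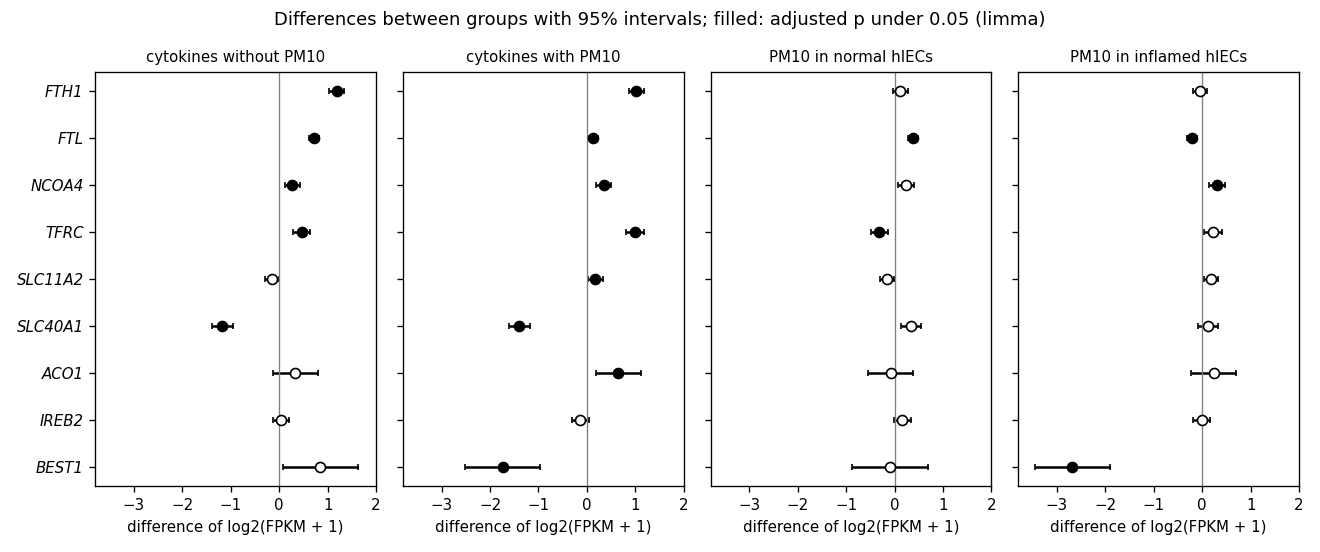
Differences of log2(FPKM + 1) between groups (horizontal axes) with 95% intervals for the 9 genes tested, in 4 comparisons, with filled points where the adjusted p in limma was under 0.05. FTH1, TFRC and SLC40A1 lie away from 0 in both cytokine comparisons, and FTL lies above 0 for PM10 in normal hIECs (0.38) and below 0 for PM10 in inflamed hIECs (-0.21).

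Around these genes, 81 other genes of iron storage, uptake, export, sensing, iron-sulfur cluster and heme pathways were read as lists. Of them 12 were at 0 in all libraries and 61 were tested. Cytokines without PM10 raised 19 and lowered 20 of the 61, which is 63.9% against 56.2% of all genes, and with PM10 they raised 19 and lowered 26, which is 73.8% against 65.4%. These counts include BMP6, lower without PM10, and HFE and BMP2, higher with PM10. All of these passed the filter only through the group where they were high, so these calls were fixed in advance and support nothing. Among uptake genes, the zinc and iron importers SLC39A14 (ZIP14) and SLC39A8 (ZIP8) were raised most. SLC39A14 stood at 7.44 and 6.06 FPKM in normal hIECs, 6.91 and 7.24 with PM10, 25.97 and 26.4 in inflamed hIECs, and 30.7 and 32.8 in inflamed hIECs with PM10. That gave 4.48-fold more with cytokines in the presence of PM10 (2.02 ± 0.088, adjusted p = 1.46e-06, limma). SLC39A8 stood between 7.80 and 10.1 FPKM without cytokines and between 26.1 and 30.3 with them, and was 3.20-fold higher without PM10 (1.57 ± 0.077, adjusted p = 3.63e-06). CYBRD1, a ferric reductase of the duodenal brush border, rose in each of the 4 group comparisons. It stood at 26.1 and 23.2 FPKM in normal hIECs, 30.8 and 30.2 with PM10, 44.7 and 44.04 in inflamed hIECs, and 66.2 and 65.6 in inflamed hIECs with PM10. SLC22A17, a receptor for lipocalin-bound iron, was 0.491 times as high with cytokines in the presence of PM10 (-1.001 ± 0.07, adjusted p = 1.47e-05). Of the 11 uptake genes tested, TFRC and SLC11A2 included, cytokines without PM10 raised 6 and lowered 3, against 25.9% of all genes higher and 30.3% lower.

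On the export side, HEPH, the membrane ferroxidase that works with ferroportin in enterocytes, rose where SLC40A1 fell. HEPH stood at 51.8 and 42.1 FPKM in normal hIECs, 51.7 and 48.3 with PM10, 69.9 and 66.0 in inflamed hIECs, and 85.8 and 81.8 in inflamed hIECs with PM10 (0.73 ± 0.094 for cytokines with PM10, adjusted p = 0.000341, limma). NEO1, a co-receptor for hemojuvelin, rose with cytokines without PM10 (0.37, adjusted p = 0.00129). With PM10 in both groups its difference did not pass (0.14, adjusted p = 0.0769). HAMP, which encodes the hormone hepcidin that removes ferroportin protein, was listed at 0 in every library, as was FTMT, the mitochondrial ferritin. TFR2 was listed at 0.184 FPKM in normal replicate 1 and at 0 elsewhere. PCBP1 and PCBP2, chaperones that load iron into ferritin, were lower with cytokines in the presence of PM10 (-0.42 and -0.39). In the same comparison FTH1 was higher by 1.02 and FTL by 0.13, and the FTL call did not hold under all alternatives. FBXL5, the iron-sensing subunit that marks IRP2 for destruction, was higher with cytokines in the presence of PM10 (0.34, adjusted p = 0.00261, limma).

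Among 24 mitochondrial iron and iron-sulfur genes tested, no gene was called for PM10 in normal or in inflamed hIECs, against 9.23% and 15.2% of all genes. Cytokines raised 5 and lowered 6 of them without PM10 (45.8% called, against 56.2%) and raised 6 and lowered 11 with it (70.8% called, against 65.4%). FDXR, ferredoxin reductase, was higher in inflamed hIECs (0.56, adjusted p = 0.00185, limma) and LYRM4, a partner of the cysteine desulfurase, lower (-0.53, adjusted p = 0.00617). With PM10 in both groups BOLA3 was higher (0.49) and NUBP2, a scaffold for cytosolic clusters, lower (-0.55). Of 16 heme genes tested, cytokines without PM10 raised 4 and lowered 7 (68.75% called, against 56.2% of all genes). ALAS1, the rate-limiting enzyme of heme synthesis outside erythroid cells, was higher with cytokines in the presence of PM10 (0.61 ± 0.079), and PPOX, a later enzyme of the same pathway, was lower (-0.83 ± 0.086). BLVRA, biliverdin reductase, was higher in inflamed hIECs (0.58 ± 0.049). HMOX1, which frees iron from heme and is known for its response to oxidants, stood at 6.90 and 6.02 FPKM in normal hIECs and 10.5 and 9.86 with PM10. It stood at 4.94 and 4.75 in inflamed hIECs and 5.17 and 4.75 with PM10. PM10 raised HMOX1 in normal hIECs (0.59 ± 0.08, adjusted p = 0.0083), and the difference in inflamed hIECs was 0.03 with a 95% interval from -0.16 to 0.22, with an interaction of -0.56 ± 0.113 (adjusted p = 0.0323). Of 5 other tested transcripts with a reported iron-responsive element, EPAS1 (HIF-2α) was higher with cytokines in the presence of PM10 (1.04 ± 0.067), as was CDC42BPA (0.57), and PFN2 was lower (-0.25).

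**Figure D5:**
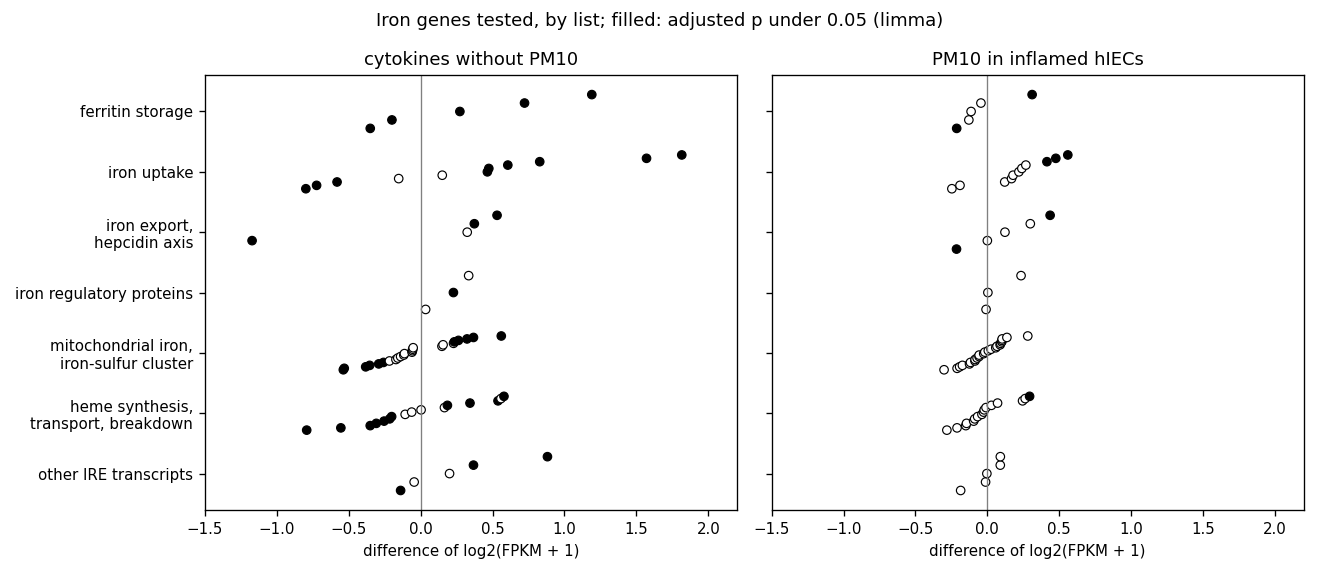
Differences of log2(FPKM + 1) of the tested genes of the iron lists (rows), for cytokines without PM10 (left) and PM10 in inflamed hIECs (right), with filled points where the adjusted p in limma was under 0.05. Members are included except BEST1, which is in none of the lists. BMP6 (-1.60 for cytokines without PM10), whose fall was fixed by the filter, lies outside the left axis. Points spread to both sides of 0 for cytokines, with 19 of the 61 non-member genes called higher and 20 lower, and lie nearer 0 for PM10.

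PM10 called few of the 61 genes, 6 in normal hIECs and 6 in inflamed hIECs, which is 9.84% in each against 9.23% and 15.2% of all genes. BMP6, HFE and BMP2 are among these calls but passed the filter only through the group where they were high, so they had to differ and their calls support nothing. The genes named here beyond the rule for named genes were chosen after their values were seen. In normal hIECs, HMOX1, the metalloreductase STEAP1 (0.57, adjusted p = 0.00964, limma) and CYBRD1 (0.30, adjusted p = 0.0281) were higher with PM10. EPAS1 (-0.35, adjusted p = 0.0244) and the transferrin relative MELTF (-0.30, adjusted p = 0.0294) were lower. BMP6, a ligand that induces hepcidin, stood at 2.203 and 1.89 FPKM in normal hIECs, 0.363 and 0.326 with PM10, and was listed at 0 in all 4 libraries with cytokines. In inflamed hIECs, CYBRD1 (0.56, adjusted p = 0.00185), STEAP3, the endosomal metalloreductase (0.41, adjusted p = 0.0272), and ALAS1 (0.29, adjusted p = 0.0477) were higher with PM10, and NEO1 was lower (-0.21, adjusted p = 0.0497). HFE, which binds the transferrin receptor, stood at 1.43 and 1.47 FPKM in inflamed hIECs with PM10 and at most at 0.793 elsewhere, and BMP2 at 1.51 and 1.32 and at most at 0.817 elsewhere. The interaction called 4 of the 61 (HFE, BMP6 and MELTF higher, HMOX1 lower), against 6.6% of all genes. That of BMP6 restates its difference in normal hIECs, since a gene listed at 0 in inflamed hIECs could not fall further there.

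With BMP6, HFE and BMP2 set aside, the PM10 call of CYBRD1 in inflamed hIECs held with any library left out, and each of the others was lost without at least 1 library. Over all 20 alternatives, the HMOX1 and STEAP1 calls in normal hIECs were each lost under 2 (adjusted p up to 0.11 and 0.124, limma). In normal hIECs, the HMOX1 call was lost without replicate 1 of those with PM10 (adjusted p = 0.0696, limma) and the STEAP1 call without replicate 2 (adjusted p = 0.0662). That of CYBRD1 was lost without any library of the 3 treated groups (adjusted p up to 0.143), and those of EPAS1 and MELTF without any library but normal replicate 1 (up to 0.126 and 0.136). In inflamed hIECs, the ALAS1 and NEO1 calls were lost without any library of the 3 treated groups (up to 0.209 and 0.234), as was STEAP3 with the exception of replicate 1 of inflamed hIECs with PM10 (up to 0.139). The interaction was lost for HMOX1 and MELTF without any library of the 3 treated groups (up to 0.116 and 0.122).

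The genes whose profile over the 8 libraries lay nearest to that of a member were sought by the root mean square difference of centred log2(FPKM + 1) values among all genes tested. Nearest to FTH1 were EFHD2 (0.052), PML (0.059) and B4GALT4 (0.066). Nearest to TFRC were ASPH (0.069), ESCO2 (0.073) and HLA-DQA1 (0.075), and nearest to SLC40A1 were ECEL1 (0.059), PRKAR1B (0.065) and SHISA2 (0.066). ECEL1 stood between 1.09 and 1.76 FPKM without cytokines and was listed at 0 in all 4 libraries with them. It passed the filter only through the groups where it was high, so its fall was fixed and its likeness supports nothing. These are descriptions of 8 libraries in 4 groups, with many genes tested, and no more than likeness of profile was measured.

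The share of all FPKM that fell on mitochondrially encoded genes was 17.02% and 24.2% in normal hIECs, 20.4% and 20.2% with PM10, 16.9% in both inflamed libraries, and 15.5% and 15.7% in inflamed hIECs with PM10. Normal replicate 2 was the highest. When these genes were left out of the scaling, the calls of FTH1, FTL and SLC40A1 for cytokines were kept, TFRC with PM10 in normal hIECs no longer passed (-0.28, adjusted p = 0.0511), and SLC40A1 (0.38, adjusted p = 0.0349) and NCOA4 (0.28, adjusted p = 0.0367) with PM10 in normal hIECs passed.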

How the data were processed

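Libraries were poly-A selected, not strand-specific, and read from both ends. Per the methods of the study and the submitters' processing notes, the authors used Cutadapt 3.7 for adapters, Sickle 1.33 for trimming, HISAT2 2.2.1 for alignment to GRCh38 and StringTie 2.2.0 for expression. The deposited values are FPKM, 1 per gene and library, without scaling between libraries. The annotation release is not given in the sources used here, and GENCODE release 44, which held 99.5% of the 60558 gene identifiers, gave positions, overlaps and stem-loops. No read counts were used. Some marker values are not reported here.

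Groups came from the sample titles. Genes reaching 1 FPKM in 2 or more libraries (14206) were fitted as log2(FPKM + 1) over all 8 libraries in limma (version 3.58.1, under R 4.3.3) with its variance trend. Benjamini-Hochberg adjustment ran separately for each of the 5 comparisons. The fit was tested on simulated data, but the outcome is not reported here and no result rests on it. The members and lists were chosen with earlier results of these data known. All 10 members are named, and up to 4 other genes per list with the largest called difference and a mean of at least 1 FPKM. Also named are the 3 ferritin pseudogenes of highest mean and the 3 profiles nearest to FTH1, TFRC and SLC40A1. Alternatives covered the pseudocount, filters on low FPKM, scaling, gene class, groups in the fit, trend, robust fit, replicate block and each library left out. Other steps used pandas 2.3.3, scipy 1.17.1 and matplotlib 3.10.9 under Python 3.11.15.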

Additional observations from a re-analysis of the deposited data

Results flagged for a closer look

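The interaction of PM10 and cytokines was called by limma for 3 of the 9 members tested and for 4 of the 61 other iron genes, where 6.6% of all genes were called. Marker genes were called too, 3 of the 14 mesenchymal markers higher and 6 lower, and the part of these in the iron results was not tested. The difference on the log2 scale, PM10 in inflamed minus PM10 in normal hIECs, was -0.59 for FTL, which was higher with PM10 in both normal libraries and lower in both inflamed ones, and this call held with any library left out. It was 0.53 for TFRC, -2.59 for BEST1, -0.56 for HMOX1 and 0.42 for MELTF, and these calls were lost when single libraries were left out (6 of 8 libraries for BEST1, HMOX1 and MELTF and 7 of 8 for TFRC). HFE (0.55) and BMP6 (1.18) passed the filter on low values only through the group where they were high, so no difference in response is shown for them. The HFE call was lost without any of the 8 libraries. BMP6 was listed at 0 in all libraries with cytokines and could not fall further there.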

How the results depend on the processing

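Over the 45 combinations of member and comparison, 820 of 901 values under an alternative kept their direction and their side of the threshold, 57 no longer passed, 16 newly passed and 8 changed sign. The changes of sign were in values that never passed. With 1 library left out, PM10 in normal hIECs ranged from -0.37 to 0.20 for ACO1 (positive without normal replicate 1) and from -0.35 to 0.16 for BEST1 (positive without either group's replicate 2, 0.15 and 0.16), and the NCOA4 interaction from -0.023 (without normal replicate 1) to 0.17. IREB2 ranged from -0.049 to 0.12 with cytokines without PM10 (negative without normal or inflamed replicate 2, -0.049 and -0.00018) and from -0.044 to 0.026 with PM10 in inflamed hIECs (positive without inflamed replicate 2), where it was also 0.014 with mitochondrial genes out of the scaling. The cause was not tested.

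The members called for PM10 in normal hIECs fell from 2 to 1 with a pseudocount of 0.1, with no filter, with no trend and with the replicate block, and to 0 with only the groups compared. All genes called there were 2032 with mitochondrial genes out of the scaling and 23 with only the groups compared, which leaves fewer libraries in the fit. With 1 library left out, the members called ranged from 1 to 3 and all genes from 194 to 2627 for PM10 in normal hIECs, from 5 to 8 members for cytokines with PM10, from 1 to 3 members and 675 to 2992 genes for PM10 in inflamed hIECs, and from 1 to 3 members and 263 to 1266 genes for the interaction. Where a group was left with 1 library, that library was assumed to vary like the other groups. The log2 difference between TFRC and FTH1, with cytokines minus without, was -0.38 and did not pass (exact permutation, p = 0.0857, 0.167 adjusted). It averages both settings, since the difference with cytokines was 0.46 for TFRC and 1.19 for FTH1 without PM10, and 0.998 and 1.02 with it. With 1 library left out it ranged from -0.47 to -0.27, and that of BEST1 and FTH1 from -2.09 to -0.96, each with 1 value that passed before adjustment. Replicate numbers did not pair the libraries, with correlations of deviations between -0.0015 and 0.079. The replicate block also ended the TFRC call for PM10 in normal hIECs (adjusted p = 0.0593) and the SLC11A2 call for cytokines with PM10 (0.0566), and BEST1 with cytokines without PM10 passed (0.0459). The share of calls that were higher was 59.7% for PM10 in normal hIECs, and 42.9% with median centring, 49.8% with quantile normalization and 75.4% with mitochondrial genes out of the scaling. For PM10 in inflamed hIECs it was 40.8% and 50.8% with quantile normalization, and for the interaction 32.0%, 45.7% with median centring and 46.6% with quantile normalization. Without read counts, depth limits most the genes under about 1 FPKM, HFE, BMP6 and TFR2 among those named.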
